A study of Zea mays with 74 samples.

Results

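Of the 1545 differentially methylated regions (DMRs) in the CG context between teosinte and modern maize, 289 lay outside the gene models and their flanks and overlapped no CHG DMR of the same pair of populations by even 1 bp. They are described here as intergenic CG-only DMRs, where CG-only means without a teosinte-maize CHG DMR. The name leaves aside CHG DMRs of the other comparisons and CHH DMRs, which some of them overlapped. The 289 were found by position alone. A region was kept when its chromosome, start and end were absent from the study's list of CG DMRs in the 30 bins along gene models and flanks, which held 792 regions, and when no teosinte-maize CHG DMR touched it. The other 464 CG DMRs outside the gene bins overlapped a CHG DMR. The label intergenic was not exact, because 12 of the 289 stand on the study's list of DMRs in exons. It is also wider than the study's own use of the word, which leaves out transposons, whereas regions in transposons were not removed here.

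The methylomes were made by whole-genome bisulfite sequencing, which reads the methylation of each cytosine, from the third leaf of greenhouse seedlings. They came from 20 plants of teosinte (Zea mays ssp. parviglumis), the wild ancestor of maize, all from a single natural population, and from 17 Mexican landraces, which are open-pollinated farmer varieties. The methylomes of 14 modern maize inbred lines had been published before and were downloaded. Selective sweeps were scanned from single-nucleotide polymorphisms (SNPs). These came from genome resequencing of the same teosinte and landrace plants and from published resequencing of the same 14 modern lines. The deposited tables hold 6389 DMRs and 4060 sweeps called between populations, with no value of a single plant, so the tests below count regions, and the spread between plants is unknown. Teosinte and landrace plants were outcrossed and the modern lines inbred, and the modern methylomes and resequencing came from other projects. Population, mating system and source of the data therefore cannot be told apart.

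Cytosine methylation in plants falls into the contexts CG, CHG and CHH, with H standing for A, C or T. CG methylation is copied after replication by the maintenance methyltransferase MET1, whereas CHG methylation is kept by chromomethylases that bind repressive histone methylation. Maize intergenic sequence is mostly transposons, which are usually methylated in both contexts, while the bodies of many active genes carry methylation in CG with little in CHG. A CHG DMR is a called region, so its absence from a CG DMR means only that no CHG region met the study's calling criteria there. These covered the size of the difference, the number of cytosine sites with enough reads and a corrected p-value. Which criterion was missed at each region was not tested, and a short region may hold few CHG sites. The absence of a CHG DMR does not show that CHG methylation was equal in both populations.

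The intergenic CG-only DMRs were short and covered 103 kb in all. Their lengths ran from 41 bp to 1305 bp with a median of 309 bp and quartiles of 195 bp and 473 bp. Intergenic CG DMRs with a CHG DMR had a median of 413 bp with quartiles of 255 bp and 628 bp, and the CG DMRs of gene models and flanks had a median of 315 bp. Only 6 of the 289 (2.08%) were longer than 1 kb, against 5.17% of those with a CHG DMR. A longer region has more chance to touch a CHG DMR, so length was partly set by the rule and was not tested.

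**Figure D1:**
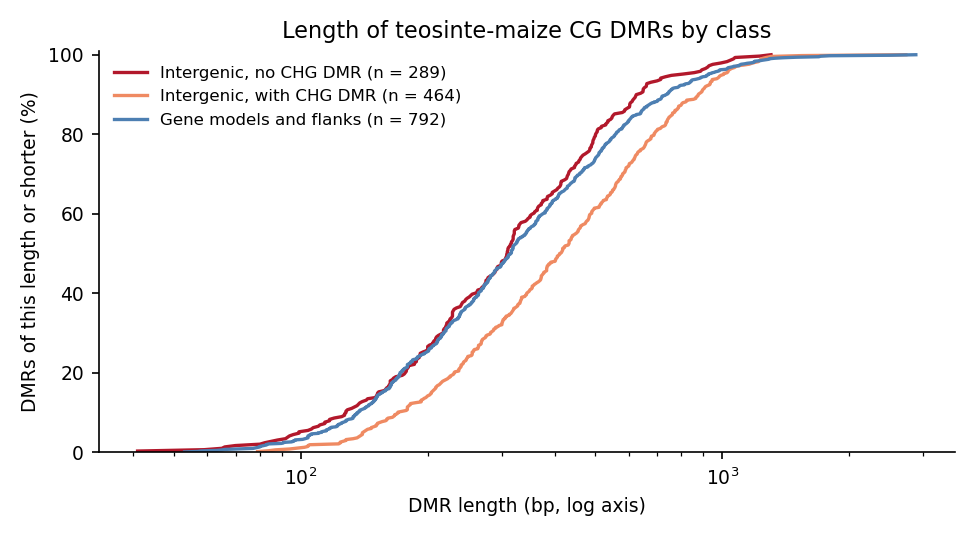
Length of teosinte-maize CG DMRs (x axis, bp, log scale) against the share of the class with that length or less (y axis, %), with 1 line per class. The line of the 289 intergenic CG-only DMRs, with a median of 309 bp, runs close to that of the 792 DMRs of gene models and flanks (315 bp), and that of the 464 with a CHG DMR lies to the right (413 bp).

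The longest of the 289 was a region of 1305 bp on chromosome 4 (112109513 to 112110817, B73 AGPv4, as are all positions here) that was more methylated in maize. The next was 1226 bp on chromosome 4 (101149108 to 101150333) and less methylated in maize. It overlapped a teosinte-landrace CG DMR from 101149171 to 101149942. The one after it was 1072 bp on chromosome 3 (84870252 to 84871323), more methylated in maize and outside every sweep. The shortest were 41 bp on chromosome 4 (46663958 to 46663998, more methylated in maize), 59 bp on chromosome 1 (278741 to 278799, less methylated) and 65 bp on chromosome 7 (86388379 to 86388443, less methylated). The extremes of length thus held regions of both directions, and the medians of the less and the more methylated regions were 298.5 bp and 316 bp.

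Most intergenic CG-only DMRs were less methylated in maize. Methylation was lower in modern maize than in teosinte at 194 of the 289 (67.1%, exact 95% binomial interval 61.4% to 72.5%) and higher at 95. Over all teosinte-maize CG DMRs with a known direction the share lower in maize was 64.7%. It was 75.4% (71.3% to 79.3%) where a CHG DMR was present and 57.5% (54.0% to 61.0%) in gene models and flanks. The direction belongs to the contrast that defined the regions and is given without a test. Intervals of shares cover counting error only.

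The distance to the nearest CHG DMR varied widely among them. The rule fixed that none of them touched one. In all, 2372 teosinte-maize CHG DMRs lay over 2105 Mb, and distances for randomly placed regions were not computed. The values therefore cannot be read as large or small. The median distance was 157 kb, with quartiles of 45.7 kb and 524 kb and a maximum of 5.14 Mb. Only 15 of the 289 had a teosinte-maize CHG DMR within 1 kb and 36 within 10 kb, whereas 174 had none within 100 kb. In the class with a CHG DMR, the CHG DMR with the largest overlap covered a median of 97.9% of the CG DMR's length. It covered more than 50% of that length in 436 of the 464.

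**Figure D2:**
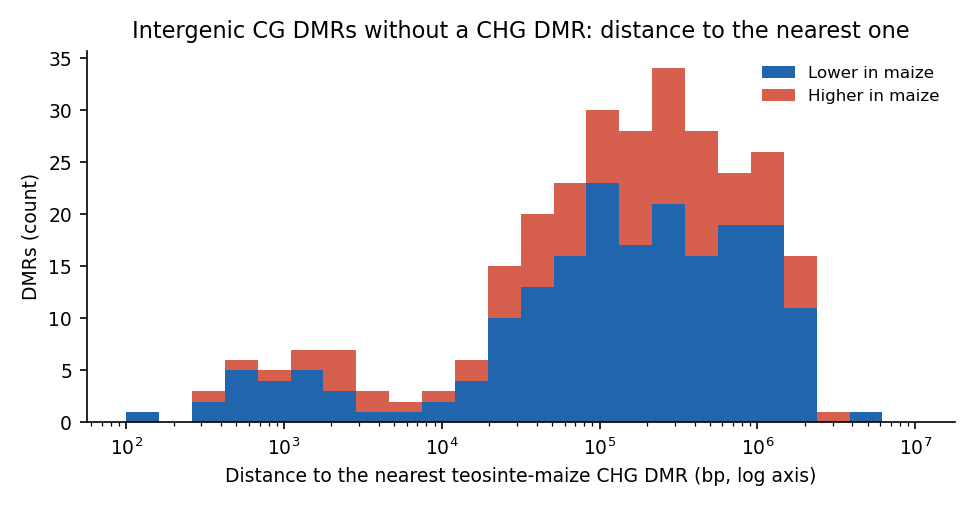
Distance from each of the 289 intergenic CG-only DMRs to the nearest teosinte-maize CHG DMR (x axis, bp, log scale) against the number of regions (y axis), split by direction in maize. The bulk lies around the median of 157 kb, with a small separate group near 1 kb that includes the 15 regions within 1 kb.

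The regions just inside the rule were 346 bp on chromosome 4 (148725311 to 148725656), which lay 157 bp from a CHG DMR, 192 bp on chromosome 4 (7612261 to 7612452) at 315 bp, and 127 bp on chromosome 2 (35979175 to 35979301) at 353 bp. All of them were less methylated in maize. Just outside the rule were 3 regions of chromosome 1, also less methylated in maize. The region from 137652239 to 137652317 overlapped a CHG DMR by 35 bp, and those from 127360376 to 127360598 and from 128761290 to 128761566 each overlapped one by 50 bp.

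Few intergenic CG-only DMRs lay close to another of their own class. With gaps of at most 10 kb between them, 12 of the 289 (4.15%) fell into groups, which were 6 pairs. The same gap placed 12.7% of the intergenic DMRs with a CHG DMR and 10.6% of those in gene models and flanks in groups of their own class, which are larger classes and so lie closer together. The nearest other intergenic CG-only DMR was at a median of 1439 kb, and the nearest CG DMR of any class at a median of 214 kb. A teosinte-maize CG DMR of any class lay within 10 kb of 25 of the 289. The closest pair spanned 938 bp on chromosome 4 (69486247 to 69487184) and the next 1431 bp on chromosome 1 (277369 to 278799), each with both regions less methylated in maize. A pair of mixed direction spanned 3154 bp on chromosome 10 (133869 to 137022) inside a teosinte-maize sweep.

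The regions were spread over all 10 chromosomes. Chromosome 4 held the most, 53, and was the densest at 21.5 per 100 Mb, followed by chromosome 5 with 43 at 19.2 per 100 Mb. Chromosome 8 was the sparsest with 16 at 8.84 per 100 Mb. More than 50% were less methylated in maize on 8 of the 10 chromosomes, and on chromosomes 1 and 8 the share was exactly 50%.

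Along the chromosomes they were also even in number. Of the 289, 95 lay within 20% of the chromosome's length from its nearer end, 98 lay at 20% to 40%, and 96 lay in the middle zone at 40% to 50%, which is shorter and so was the densest at 22.8 per 100 Mb. The outer zones had 11.3 and 11.6 per 100 Mb. The DMRs of gene models and flanks were concentrated toward the ends, with 49.0%, 35.2% and 15.8% of them in the same zones. Direction moved with position. The share of intergenic CG-only DMRs less methylated in maize was 77.9% in the outer zone, 66.3% in the next and 57.3% in the middle, whereas those with a CHG DMR had 78.4%, 70.1% and 80.3%.

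A small part of the intergenic CG-only DMRs coincided with a called difference between teosinte and landraces. A teosinte-landrace CG DMR overlapped 50 of the 289 (17.3%), close to the 17.2% of all teosinte-maize CG DMRs. It overlapped 25.2% of those with a CHG DMR and 12.4% of those in gene models and flanks. A landrace-maize CG DMR overlapped 13 (4.50%, against 5.44% of all), and no region had both, so that 226 had a CG DMR in neither comparison. These comparisons share plants with the teosinte-maize contrast and are given as a description.

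Some regions without a teosinte-maize CHG DMR nevertheless had a CHG DMR between teosinte and landraces. This held for 21 of the 289 (7.27%, exact interval 4.55% to 10.9%), against 12.5% of all teosinte-maize CG DMRs, 23.5% of those with a CHG DMR and 7.95% of those in gene models and flanks. Of the 21, 14 also had a teosinte-landrace CG DMR and 7 did not. A landrace-maize CHG DMR overlapped 1 of the 289 (0.346%), against 3.17% of all teosinte-maize CG DMRs. The share was 5.60% of those with a CHG DMR and 2.78% of those in gene models and flanks. The rule had excluded teosinte-maize CHG DMRs. That contrast shares its teosinte plants with the teosinte-landrace comparison and its maize lines with the landrace-maize one. The CHG shares of the 289, and those of the class with a CHG DMR, were therefore partly set by the rule and were not tested. CHH methylation, which is set largely by RNA-directed methylation, differed by a called region between teosinte and maize at 2 (0.692%), against 0.712% of all.

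Selective sweeps were the readout that the choice of regions had not used. A sweep is a stretch where allele frequencies at SNPs differ between populations more than elsewhere, scored by XP-CLR, a composite likelihood score that rises with the signal. Each of the 3 sweep sets covered nearly the same share of the chromosomes, 15.8% for teosinte-maize, 15.9% for teosinte-landrace and 15.5% for landrace-maize.

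Teosinte-maize sweeps held a smaller share of the intergenic CG-only DMRs than of the intergenic DMRs with a CHG DMR. They overlapped such a sweep at 84 of 289 regions (29.1%, 23.9% to 34.7%), against 212 of 464 (45.7%, 41.1% to 50.3%). Over all teosinte-maize CG DMRs the share was 27.7%. The odds ratio was 0.488 (95% interval 0.351 to 0.673, Fisher's exact test, two-sided, Benjamini-Hochberg adjusted p = 1.71e-05 over 6 comparisons). The share was the lower one on 10 of 10 chromosomes. The odds ratio was 0.483 (0.328 to 0.712, adjusted p = 0.00216) when DMRs were compared only within the same 20 Mb bin of the genome, and 0.524 (adjusted p = 1.83e-04) within quartiles of DMR length. Within bins of 5 Mb it was 0.507 (0.306 to 0.840) and its adjusted p was 0.0593. Neighbouring DMRs can share a sweep and are not independent, so these p-values are smaller than independent regions would give.

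**Figure D3:**
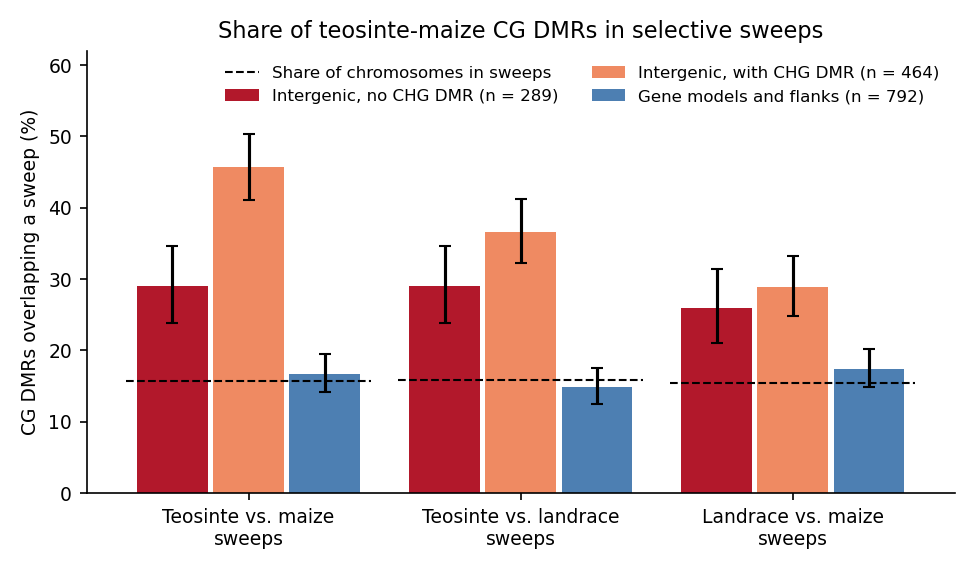
Share of teosinte-maize CG DMRs (y axis, %) that overlap a sweep of each of the 3 population comparisons (x axis), by class of DMR, with exact 95% binomial intervals as error bars and the share of the chromosomes covered by sweeps as dashed lines. The 289 intergenic CG-only DMRs (29.1%, 29.1% and 26.0%) lie between those with a CHG DMR (45.7%, 36.6% and 28.9%) and those of gene models and flanks (16.7%, 14.9% and 17.4%).

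They fell in teosinte-maize sweeps more often than the CG DMRs of gene models and flanks, of which 132 of 792 did (16.7%, 14.1% to 19.4%). The odds ratio was 2.05 (1.47 to 2.84, Fisher's exact test, adjusted p = 3.03e-05). The call was lost when DMRs were compared within the same 20 Mb bin, where the odds ratio was 1.04 (0.682 to 1.59, adjusted p = 0.980). It also did not pass the threshold without the sweeps longer than 1 Mb (1.41, adjusted p = 0.165).

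Sweeps between teosinte and landraces overlapped 84 of the 289 (29.1%), against 24.1% of all teosinte-maize CG DMRs. The odds ratio was 0.709 (0.509 to 0.983, Fisher's exact test, adjusted p = 0.0394) against the intergenic DMRs with a CHG DMR, of which 170 overlapped (36.6%). That call lay close to the threshold and was lost without any one of the chromosomes 2, 3, 4, 5, 7 and 9, with odds ratios of 0.698 to 0.785 among these 6. Against gene models and flanks (118 regions, 14.9%) the odds ratio was 2.34 (1.67 to 3.26, adjusted p = 2.31e-06), and within 20 Mb bins it was 1.38 (adjusted p = 0.314).

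Sweeps between landraces and maize overlapped 75 of the 289 (26.0%, 21.0% to 31.4%), against 22.5% of all. The difference from those with a CHG DMR (134 regions, 28.9%) did not pass the test, with an odds ratio of 0.863 and an interval of 0.610 to 1.22 (Fisher's exact test, adjusted p = 0.403). The share was higher than in gene models and flanks (138 regions, 17.4%), with an odds ratio of 1.66 (1.19 to 2.31, adjusted p = 0.00366). Without chromosome 4 it was 1.42 (adjusted p = 0.0770), and within 20 Mb bins the ratio was 0.984 (adjusted p = 0.980). Whether the gap to those with a CHG DMR differed between the 3 sweep sets was not tested.

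Position along the chromosome moved with sweep overlap in every class. Of the intergenic CG-only DMRs, 10.5% of the outer zone, 34.7% of the next and 41.7% of the middle zone lay in teosinte-maize sweeps. The sweeps themselves covered 6.81%, 19.6% and 26.1% of these zones. The DMRs with a CHG DMR had the higher share in each zone, with 23.3%, 50.7% and 56.5%. In gene models and flanks the shares were 6.19%, 21.1% and 39.2%, each below that of the intergenic CG-only DMRs. The intervals of both classes overlapped in all 3 zones, though narrowly in the zone at 20% to 40%. There the interval of the intergenic CG-only DMRs began at 25.36% and that of gene models and flanks ended at 26.41%. Such overlap does not show the shares to be equal, and the differences within zones were not tested.

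**Figure D4:**
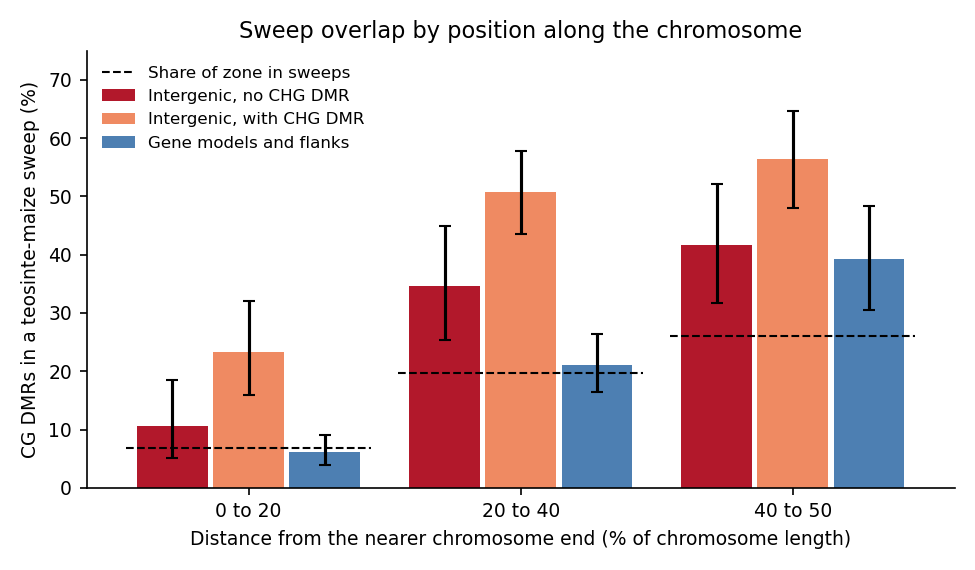
Share of CG DMRs in a teosinte-maize sweep (y axis, %) by distance from the nearer chromosome end (x axis, % of chromosome length) and class, with exact 95% binomial intervals and the share of each zone covered by sweeps as dashed lines. Among the intergenic CG-only DMRs the share is 10.5%, 34.7% and 41.7% from the ends to the middle, below the DMRs with a CHG DMR in each zone.

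By chromosome, the share of intergenic CG-only DMRs in teosinte-maize sweeps ran from 9.52% on chromosome 6 (2 of 21) to 40.0% on chromosome 7 (10 of 25). It was above the share of the chromosome covered by sweeps on every chromosome other than 6, where sweeps covered a larger share than that. Chromosome 5 had the widest gap to the DMRs with a CHG DMR, with 20.9% against 61.4%, and chromosome 3 the narrowest, with 34.3% against 37.0%.

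**Figure D5:**
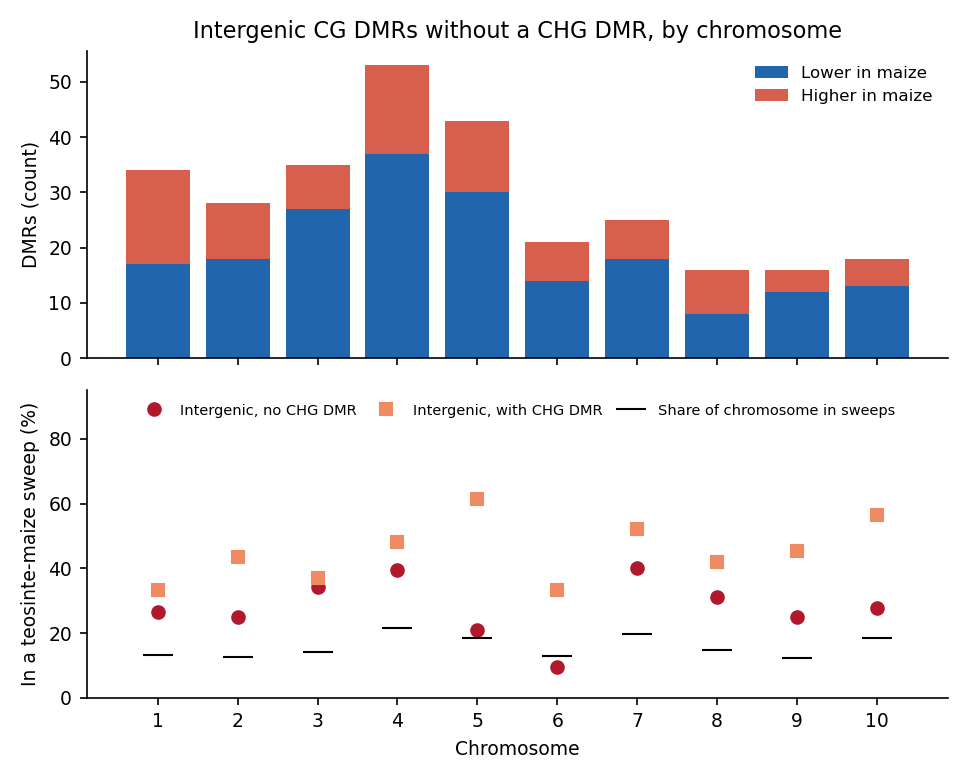
Upper panel, number of intergenic CG-only DMRs (y axis) on each chromosome (x axis), split by direction in maize. Lower panel, share in a teosinte-maize sweep (y axis, %) for these DMRs and for those with a CHG DMR, with the share of the chromosome covered by sweeps as short lines. Chromosome 4 has the most regions (53), and the circles lie below the squares on all 10 chromosomes.

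The share in sweeps was higher among regions more methylated in maize than among those less methylated. Of the 95 more methylated in maize, 35 overlapped a teosinte-maize sweep (36.8%, 27.2% to 47.4%), against 49 of the 194 less methylated (25.3%, 19.3% to 32.0%). For teosinte-landrace sweeps the shares were 40.0% and 23.7%, and for landrace-maize sweeps 33.7% and 22.2%. The intervals overlap for all 3 sweep sets, though narrowly for teosinte-landrace sweeps (30.1% to 50.6% against 17.9% to 30.3%). Such overlap does not show the shares to be equal, and the difference was not tested. Position moved with it, since 43.2% of the more methylated regions and 28.4% of the less methylated ones lay in the middle zone. Within the zones the shares in teosinte-maize sweeps were 14.3% against 9.46% in the outer zone, 39.4% against 32.3% in the next and 46.3% against 38.2% in the middle. The intergenic DMRs with a CHG DMR also had the higher share among regions more methylated in maize, with 49.1% against 44.6% for teosinte-maize, 47.4% against 33.1% for teosinte-landrace and 34.2% against 27.1% for landrace-maize sweeps. In gene models and flanks both directions had 16.7% for teosinte-maize sweeps, and the shares were 15.5% against 14.3% for teosinte-landrace and 19.7% against 15.4% for landrace-maize sweeps.

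In all, 135 of the 289 (46.7%) overlapped a sweep of at least 1 comparison and 154 of none. Of those in no sweep, 115 were less methylated in maize. All 3 sweep sets overlapped 28 regions, 17 of them less methylated in maize. The sets come from shared plants and overlap each other. These combined counts were not made for the other CG DMRs, so they cannot be read as high or low for the 289. The 205 regions outside teosinte-maize sweeps were at a median of 372 kb from the nearest, and 32 of them were within 50 kb.

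Few sweeps held an intergenic CG-only DMR, and those that did were long. Of 1330 teosinte-maize sweeps, 64 held one or more, with a median length of 602.5 kb against 130 kb over all and a median XP-CLR of 109 against 77.2. A longer sweep has more room for a DMR, and length was not separated from the score here. In 53 of the 64 there was a single region. Over all 1330 sweeps the regions were at 25.3 per 100 Mb inside sweeps and at 11.6 per 100 Mb outside them, and 38 of the 84 lay in sweeps longer than 1 Mb.

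The sweep with the most was on chromosome 3 (73260001 to 79785000, XP-CLR 173), where 6 of its 16 CG DMRs were intergenic and CG-only, 4 less and 2 more methylated in maize. A sweep of 770 kb on chromosome 4 (100410001 to 101180000, XP-CLR 144) held 4, all less methylated in maize, among them the region of 1226 bp. Another on chromosome 4 (110600001 to 112610000, XP-CLR 174) held 3, of which 2 were more methylated, among them the longest region of 1305 bp.

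No intergenic CG-only DMR lay in the 9 highest scoring teosinte-maize sweeps, in which 3 CG DMRs of any class were found. From each of the next sweeps the longest region is named, so the directions named do not stand for all regions in them. The 10th sweep by score (XP-CLR 197) held a region of 661 bp on chromosome 4 (31912315 to 31912975) that was more methylated in maize. The 11th (XP-CLR 195) held 2 regions, 1 less and 1 more methylated in maize, of which the longer was 278 bp on chromosome 8 (98626743 to 98627020), less methylated and in sweeps of all 3 comparisons. Next by score came 432 bp on chromosome 4 (61480266 to 61480697, more methylated, XP-CLR 187) and 143 bp on chromosome 3 (71811888 to 71812030, less methylated, XP-CLR 184). Then followed 226 bp on chromosome 7 (59493089 to 59493314, less methylated, XP-CLR 179), in a sweep of 9545 kb, the longest teosinte-maize sweep to hold any of the 289. That region of 226 bp overlapped a teosinte-landrace CHG DMR from 59492346 to 59493250. The others were 478 bp on chromosome 10 (136545 to 137022, less methylated, XP-CLR 176) and 206 bp on chromosome 8 (102629679 to 102629884, more methylated, XP-CLR 174), followed by the region of 1305 bp. The sweep of the region of 478 bp held 2 of the 289 and that of the region of 1305 bp held 3.

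The highest scoring teosinte-landrace sweep with such a region ranked 3rd of 1355 (XP-CLR 481) and held 200 bp on chromosome 1 (106182381 to 106182580), more methylated in maize and on the exonic list for Zm00001d030108. The next held 623 bp on chromosome 2 (126773471 to 126774093, less methylated, XP-CLR 290) and 375 bp on chromosome 5 (121282686 to 121283060, more methylated, XP-CLR 245). Among landrace-maize sweeps the highest (XP-CLR 209) held 1063 bp on chromosome 1 (127254314 to 127255376), which was more methylated in maize. This region overlapped a teosinte-landrace CG DMR from 127254664 to 127254800 and a teosinte-landrace CHG DMR from 127254529 to 127254773. It was followed by 649 bp on chromosome 5 (123670048 to 123670696, more methylated, XP-CLR 192) and by the same region of 375 bp (XP-CLR 180), which lay in sweeps of all 3 comparisons. Here too the longest region of each sweep is named, and the highest landrace-maize sweep held 3.

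The study listed intergenic DMRs less methylated in maize that touch a gene through a chromatin loop. Of the 289, 15 were on that list with 30 genes, all less methylated in maize because the list was made so. The list held 42 of all 1545 teosinte-maize CG DMRs, of which 27 were among the 464 intergenic ones with a CHG DMR. None was in gene models and flanks, since the list is of DMRs that are intergenic in the study's narrower sense. A teosinte-maize sweep overlapped 2 of the 15, against 27.7% of all teosinte-maize CG DMRs, a count too small to read a difference from. The one was 551 bp on chromosome 3 (145163300 to 145163850), joined to Zm00001d041948, Zm00001d041949, Zm00001d041950 and Zm00001d041951, in a sweep of XP-CLR 113. The other was 222 bp on chromosome 5 (29697528 to 29697749), joined to Zm00001d014032, in a sweep of XP-CLR 90.0. Among the 13 outside, chosen here after their values were seen, 3 overlapped a teosinte-landrace CG DMR, against 17.2% of all teosinte-maize CG DMRs. They were 483 bp on chromosome 1 (32617091 to 32617573, joined to Zm00001d028375 and Zm00001d028377), 500 bp on chromosome 5 (101561644 to 101562143, Zm00001d015618) and 293 bp on chromosome 5 (212643382 to 212643674, Zm00001d018036, Zm00001d018037 and Zm00001d018038). The region of 500 bp also overlapped a teosinte-landrace CHG DMR from 101561754 to 101562134. The shortest looped region was that of 65 bp on chromosome 7, joined to Zm00001d020023.

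Of the 12 regions on the exonic list, 8 were more and 4 less methylated in maize, and 92 of all 227 CG DMRs on that list were less methylated. In teosinte-maize sweeps were 272 bp on chromosome 4 (102622253 to 102622524, less methylated, Zm00001d026866), 405 bp on chromosome 5 (81214512 to 81214916, less methylated, Zm00001d015249) and 319 bp on chromosome 10 (133869 to 134187, more methylated, Zm00001d023208). The last is the partner of the region of 478 bp in the pair of mixed direction near the end of chromosome 10. The DMRs the study tied to tb1, a gene of plant branching, and to vgt1, a flowering time locus, both overlapped CHG DMRs and so were not among the 289.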

How the data were processed

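Bisulfite and resequencing libraries were made from the same teosinte and landrace plants, and each sample was grouped by its population and assay labels. Per the methods and the submitters' processing notes, the authors called SNPs with GATK from resequencing reads that BWA had placed on B73 AGPv4 and Picard had cleared of duplicates. Bisulfite reads were mapped with Bowtie2 to a reference carrying each plant's SNPs, and cytosines were extracted with Bismark. DMRs were called with metilene on minimum mean differences between populations, a minimum number of cytosine sites and a corrected p-value. Smaller shifts and regions with few covered sites are thus missed. The deposited DMR table holds other values than measurements, namely where each region lies, in which context and between which populations. For sweeps, the deposited columns are positions and an XP-CLR score. The authors scored sliding windows, joined neighbouring ones and kept outliers. The score ranks sweeps within a comparison only. Depth of single cytosines and read totals were not used here, and whether depth shaped the calls was not tested.

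DMR starts were taken to count from 0 and are printed from 1. In the sweep table, 23 ends were in exponent form and were read as whole numbers. Direction in maize was read from the study's table of population means, held in part (1542 of the 1545 regions, all 289 among them). The bins along gene models, the exonic list and the loop list are the study's, joined by position. The gene table at hand, of another assembly, matched none of the gene IDs, so IDs are printed as given. The largest position in either table stood for the end of a chromosome, 2105 Mb in all.

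An overlap was 1 bp or more. Shares were compared by two-sided Fisher's exact tests with Benjamini-Hochberg adjustment over 6 comparisons and a threshold of 0.05, and intervals of shares are exact 95% binomial ones. Comparisons within bins or quartiles used Cochran-Mantel-Haenszel odds ratios. Regions were named by rank of sweep score, length, closeness or list membership. The scripts ran under statsmodels 0.14.6, scipy 1.17.1, numpy 2.4.6, matplotlib 3.10.9 and Python 3.11.15. Fisher's exact test was tried on simulated counts of independent regions. The regions here can share a sweep, so that trial does not cover their dependence. The regions and lists were chosen with earlier results of these data known.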

Additional observations from a re-analysis of the deposited data

How the results depend on the processing

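The odds ratio of the intergenic CG-only DMRs against those with a CHG DMR in teosinte-maize sweeps stayed between 0.462 and 0.524 over 12 alternatives and between 0.444 and 0.558 when each chromosome was left out. It passed the threshold in all of them other than the 5 Mb bins (0.507). The bins of 20 Mb and 5 Mb, the quartiles of length and the omission of each chromosome were chosen after seeing the data. The ratio against those with a CHG DMR in teosinte-landrace sweeps lost its call with 1 DMR per 10 kb group (0.729), without DMRs on the exonic list (0.725), without sweeps over 1 Mb (0.812), in 20 Mb bins (0.746), in 5 Mb bins (0.783), in quartiles of length (0.741) and without chromosomes 2 (0.737), 3 (0.755), 4 (0.698), 5 (0.702), 7 (0.785) and 9 (0.715). Against gene models and flanks, the 20 Mb bins gave 1.04 for teosinte-maize and 1.38 for teosinte-landrace sweeps and turned the direction for landrace-maize sweeps (0.984). The 5 Mb bins gave 1.23, 1.29 and 1.11, none past the threshold. Without sweeps over 1 Mb, the teosinte-maize ratio was 1.41 and the landrace-maize ratio 1.03, and without chromosome 4 the landrace-maize ratio was 1.42. The landrace-maize ratio against those with a CHG DMR stayed below 1 and short of the threshold in all 12 alternatives and all 10 omissions of a chromosome. The share in groups was 1.38% at gaps of 1 kb and 13.8% at 100 kb. Bins compare fewer informative regions, since a bin with a single class adds nothing. No paired analysis was possible because the tables hold populations and no test was made on plants, for which the labels give no replicate numbers. For the same reason no plant could be left out. The spread between plants and the depth behind each DMR limit what these calls can show.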
